A study of Mus musculus with 8 samples.

Results

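The immediate early and growth-response genes are a set of 35 mouse genes, of the 55450 genes (21951 protein-coding) of the annotation used. They were picked by name for their known biology and not by a rule on values measured here, although earlier results of these data were known. RNA:DNA hybrids at these genes were read by DRIP-seq, the sequencing of DNA pulled down with an antibody against RNA:DNA hybrids, in mouse embryonic fibroblasts (MEFs). For each gene, every peak was taken that overlapped by at least 1 bp the annotated gene body extended by 1 kb to each side, here called the window of the gene. All groups shared 1 line, Rtel1F/F;WT RNH1-GFP MEFs, with floxed Rtel1 (a gene for a DNA helicase) and an RNaseH1-GFP transgene switched on by doxycycline. GFP adenovirus left Rtel1 in place and Cre-GFP adenovirus removed it. At 48 h, doxycycline at 2 µg/ml was given (DOX) or withheld (mock), and the cells were harvested another 48 h later. The groups are GFP mock and GFP DOX, in which Rtel1 was kept, then Cre mock and Cre DOX, in which it was deleted, and values said to be in list order follow this order. Each had 1 DRIP library, made from 3 pooled immunoprecipitations, and 1 peak list, and the 4 input samples were not analysed here.

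Immediate early genes are transcribed within minutes of a growth signal, before any new protein has been made. Serum response factor, cAMP-response factors and ETS factors sit on their promoters in resting cells, and kinase cascades switch them on, after which products such as FOS, JUN and EGR1 drive later genes while phosphatases such as the DUSP proteins shut the cascade off. In fibroblasts this is the classic answer to serum. R-loops, in which an RNA pairs with its template strand and frees the other strand, form during transcription and are favoured by GC-rich sequence behind the start site, and RNaseH1 removes the RNA of such hybrids.

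The lists held 87613, 60219, 91097 and 105081 peaks in list order. The number of reads behind each list is unknown, the narrowest peak was between 106 and 213 bp wide, and the deposited scores, fold enrichments and q-values are not normalised between libraries. Each group had a single library, so no difference between groups could be set against a replicate spread, no test was made between groups, and the intervals on shares cover counting error only. A peak list cannot show whether Rtel1 was deleted. It also does not measure transcription, so a gene without a peak may still be transcribed. Each peak carries a score, its −log10 q-value multiplied by 10 and rounded down. A peak was called top decile where its score reached the 90th percentile of its own list, which lay at 33, 28, 33 and 31 in list order. The percentile of a score is the share of peaks of the same list that score lower. The best score of a gene is that of its highest-scoring peak anywhere in the window, so best scores of different lists can come from different sites.

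Promoter and intron stretches of 6 members are shown, which set stretches under peaks beside stretches without one. The stretches hold matches to the binding sequence of serum response factor or predicted G-quadruplexes, both described below. They were read from the GRCm38.p6 reference on the strand of the transcript, 5′ to 3′, and contain no untranslated sequence. In the first 4, capitals mark matches to the CArG box, the binding sequence of serum response factor. Srf is its own target, and its 150 bp before the start (chr17:46556176-46556325, minus strand) lay under peaks of all 4 lists. The 150 bp before the start of Dusp5, a phosphatase of ERK kinases (chr19:53528959-53529108, plus strand), lay under peaks of 3 lists, all but GFP DOX. No list had a peak over the 150 bp before the start of Egr2 (chr10:67537719-67537868, plus strand) or over the stretch of the Fos promoter from -329 to -180 bp of the start (chr12:85473561-85473710, plus strand).
Srf: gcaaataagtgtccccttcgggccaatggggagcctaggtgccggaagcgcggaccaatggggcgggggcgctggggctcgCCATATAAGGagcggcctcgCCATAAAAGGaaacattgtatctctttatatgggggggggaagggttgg
Dusp5: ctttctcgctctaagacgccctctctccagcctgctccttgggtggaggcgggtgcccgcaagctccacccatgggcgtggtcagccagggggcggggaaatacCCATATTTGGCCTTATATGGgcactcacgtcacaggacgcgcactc
Egr2: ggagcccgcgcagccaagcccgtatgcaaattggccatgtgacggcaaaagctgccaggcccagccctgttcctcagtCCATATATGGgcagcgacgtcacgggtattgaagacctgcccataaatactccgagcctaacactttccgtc
Fos: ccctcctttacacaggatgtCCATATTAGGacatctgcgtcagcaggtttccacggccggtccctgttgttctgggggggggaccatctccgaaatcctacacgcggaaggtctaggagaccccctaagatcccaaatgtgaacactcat

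In the second set, capitals mark predicted G-quadruplexes (G4Hunter, window of 25 bases, absolute score of at least 1.5). A G-quadruplex is a fold of G-rich single strands. The 250 bp of Mcl1 (chr3:95658471-95658720, plus strand) ended at -68 bp of its principal start site, and the 200 bp of Klf10 (chr15:38298840-38299039, minus strand) lay in an intron. Both were wholly under peaks of all 4 lists. Their marked stretches are C-rich as printed, so the G-rich strand is the one opposite to the printed strand. In the Klf10 intron that strand is the template, whereas the Mcl1 stretch lies before the start.
Mcl1: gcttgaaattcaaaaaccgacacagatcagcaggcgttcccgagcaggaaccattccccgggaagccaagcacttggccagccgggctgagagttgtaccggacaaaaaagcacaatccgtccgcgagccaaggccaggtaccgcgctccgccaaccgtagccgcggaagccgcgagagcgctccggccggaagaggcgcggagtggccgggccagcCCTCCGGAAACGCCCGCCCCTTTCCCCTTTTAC
Klf10: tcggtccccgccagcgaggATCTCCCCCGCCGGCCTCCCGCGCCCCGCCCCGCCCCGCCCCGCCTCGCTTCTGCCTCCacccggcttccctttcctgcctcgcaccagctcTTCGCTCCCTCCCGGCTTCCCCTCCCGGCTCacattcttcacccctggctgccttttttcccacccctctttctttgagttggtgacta

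Peaks were found at 28 of the 35 genes in GFP mock (80.0%, 95% Clopper-Pearson interval 63.1 to 91.6), where 55.0% of all protein-coding genes had one. In GFP DOX they were found at 28 as well (80.0%, 63.1 to 91.6), against 46.0% of all protein-coding genes. Cre mock had a peak at 31 (88.6%, 73.3 to 96.8) against 60.4%, and Cre DOX at 26 (74.3%, 56.7 to 87.5) against 54.1%. In each list the members were above the share of all protein-coding genes, although they are short, with a median length of 5309 bp against 17403 bp. A peak in all 4 lists was present at 22 members (62.9%), against 33.5% of all protein-coding genes, and a peak in no list at 3 members (8.57%), against 26.1%. The 3 members without a peak were Fos, Dusp2 and Ctgf.

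**Figure D1:**
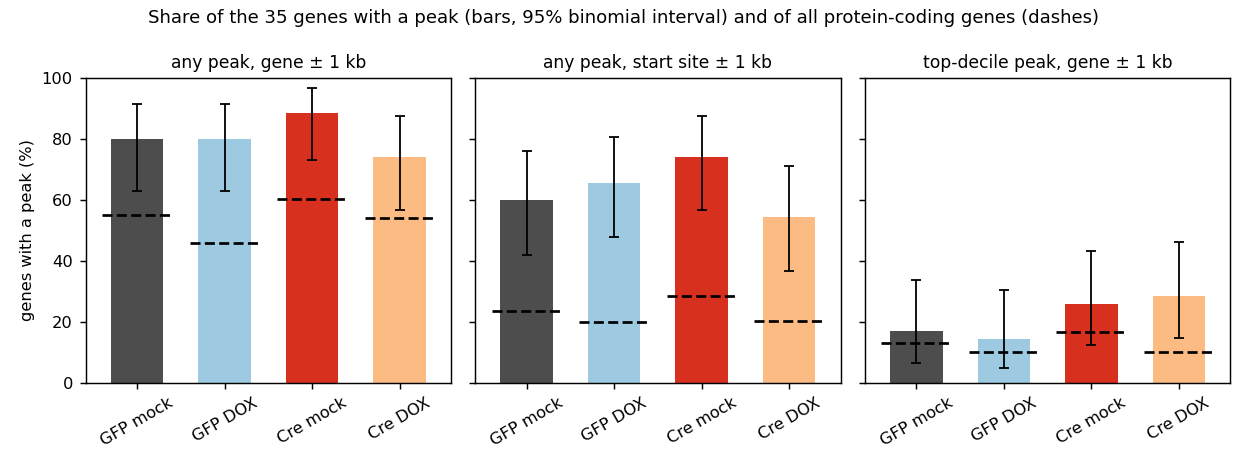
Bars show the percentage of the 35 genes with a peak in each list, with 95% binomial intervals that cover counting error only, and dashes the percentage of all protein-coding genes by the same rule. The panels count any peak in the window, any peak within 1 kb of the principal start site, and top-decile peaks in the window. Any peak in the window was found at 74.3% to 88.6% of the members, and a top-decile peak at 14.3% to 28.6%.

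The difference from other genes was wider at the start of the gene. Within 1 kb of the principal start site (the start of the main protein-coding transcript), a peak was present at 21 members in GFP mock (60.0%, interval 42.1 to 76.1), against 23.5% of all protein-coding genes. It was present at 23 in GFP DOX (65.7%, 47.8 to 80.9) against 19.8%, at 26 in Cre mock (74.3%, 56.7 to 87.5) against 28.4%, and at 19 in Cre DOX (54.3%, 36.6 to 71.2) against 20.4%. The start regions of the members are GC-rich, with a median of 58.5% against 51.4%. Among the 10374 protein-coding genes whose start region lay in the members' own range of GC content, 51.6% to 66.2%, the share with a peak was 38.3% in GFP mock and 33.2% in GFP DOX, then 46.1% in Cre mock and 31.3% in Cre DOX. In each list the members were above that share too.

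High-scoring peaks were fewer. A top-decile peak lay in the window of 6 members in GFP mock (17.1%, interval 6.56 to 33.6), against 13.1% of all protein-coding genes, and of 5 in GFP DOX (14.3%, interval 4.81 to 30.3) against 9.92%. It lay in the window of 9 in Cre mock (25.7%, interval 12.5 to 43.3) against 16.7%, and of 10 in Cre DOX (28.6%, interval 14.6 to 46.3) against 9.91%. The first 3 of these intervals held the share of all genes. At least 1 list had a top-decile peak at 16 members (45.7%, interval 28.8 to 63.4), against 28.7% of all protein-coding genes. All 4 lists had one at 2 members (5.71%, interval 0.7 to 19.2), against 2.37%, and these were Klf10 and Mcl1. The median score of the members' peaks was 18.0 in GFP mock and 18.0 in GFP DOX, then 20.5 in Cre mock and 20.0 in Cre DOX, close to the medians of 18.0, 17.0, 19.0 and 18.0 over the whole lists. The median widths of the members' peaks were 426.0, 502.0, 541.5 and 598.0 bp in the same order, against 295.0, 351.0, 343.0 and 513.0 bp over the whole lists.

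**Figure D2:**
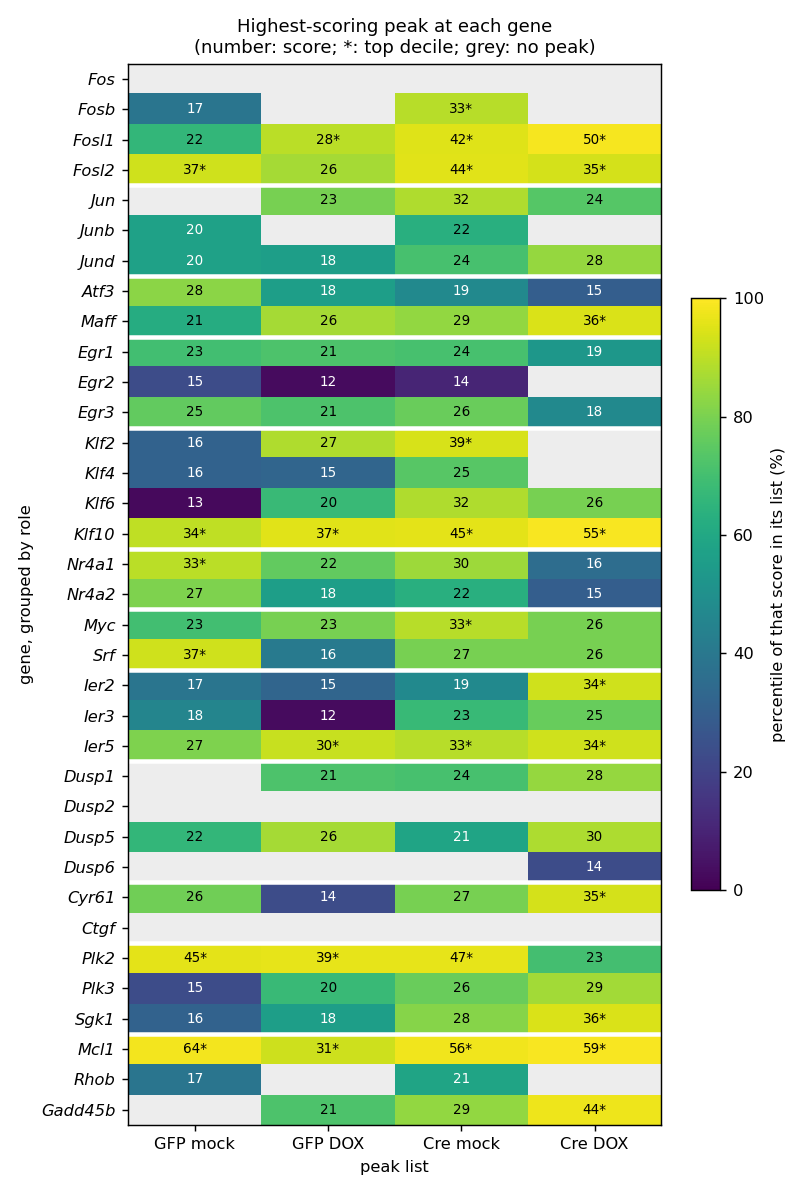
Rows are the 35 genes grouped by role and columns the 4 lists. The number is the score of the highest-scoring peak of the gene, the colour its percentile in its own list, an asterisk a top-decile peak, and grey no peak. Fos, Dusp2 and Ctgf are grey throughout, and Klf10 and Mcl1 have an asterisk in every column.

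The FOS family, which pairs with JUN proteins to form the transcription factor AP-1, was split. Fos (chr12:85473890-85477273), the founding immediate early gene, had no peak in any list. Fosb (chr7:19302696-19310051) had peaks in the mock lists only, in exons 3046 to 5313 bp behind its start. Its best score was 17 in GFP mock and 33 in Cre mock, the latter a top-decile peak of 269 bp. The other family members, Fosl1 and Fosl2, which are known to respond later and for longer than Fos, were among the most widely covered of all.

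Fosl1 (chr19:5447547-5455946) had best scores of 22 in GFP mock and 28 in GFP DOX, then 42 in Cre mock and 50 in Cre DOX, at percentiles 66.1, 89.5, 95 and 98.5. The fold enrichments of these peaks were 3.53, 3.83, 4.40 and 4.36. The last 3 were top-decile peaks. In GFP mock, 4 separate peaks covered 2351 bp, or 22.6% of the window. In the other lists the peaks ran together and covered from 74.7% (GFP DOX) to 84.4% (Cre mock), with 78.5% in Cre DOX. The widest peak of any member was here, 9426 bp in Cre mock from 959 to 10384 bp behind the start. It ran past the end of the gene and over its neighbour Ccdc85b, so its hybrid cannot be assigned to 1 gene. Fosl2 (chr5:32135801-32157842) had 10, 7, 7 and 8 peaks in list order, which covered 41.6%, 51.6%, 73.6% and 55.1% of its window. Its best scores were 37, 26, 44 and 35, with fold enrichments of 4.52, 4.01, 4.65 and 3.85, and were top decile in all but GFP DOX. A peak over its start was present in each list beginning between -1454 and -1137 bp and ending between 1648 and 6172 bp of the start.

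The JUN genes, the partners of FOS in AP-1, are known as genes without introns. Jun (chr4:95049034-95052222) had no peak in GFP mock and scored 23 (GFP DOX), 32 (Cre mock) and 24 (Cre DOX) in the others, at percentiles 79.4, 88.1 and 73.6 and fold enrichments of 3.90, 4.29 and 3.47. All its peaks lay 875 to 2244 bp behind the start, and none reached the start itself. Junb (chr8:84974484-84978718) was found in the mock lists only, with a best score of 20 in GFP mock against 22 in Cre mock over its start and fold enrichments of 3.66 and 3.58. Jund (chr8:70698949-70700616) had a peak in all 4 lists, scoring 20, 18, 24 and 28 in list order, with fold enrichments of 3.53, 3.46, 3.74 and 3.28. Its peaks spanned the start in 3 lists and began 321 bp behind it in Cre DOX. The peaks nearest the start also overlapped the predicted gene Gm11175, and DRIP peaks carry no strand, so the transcript behind the hybrid is unknown.

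Atf3 and Maff encode further basic leucine zipper factors that can pair with AP-1 proteins, ATF3 being a stress-induced repressor. Atf3 had best scores of 28, 18, 19 and 15 in list order (percentiles 82.7, 56.2, 47.4 and 29.8), with fold enrichments of 4.06, 3.74, 3.43 and 2.98. Peaks covered at most 1.47% of its long window. The GFP mock score of 28 was that of an intron peak of 106 bp from -21363 to -21258 bp, so these scores come from different sites. A peak lay within 1 kb of its principal start site in the first 3 lists, with scores of 15, 18 and 19, and the only Cre DOX peak lay from -3338 to -3126 bp, in an intron of a longer transcript. Maff scored 21, 26, 29 and 36 (percentiles 62.0, 86.5, 83.7 and 94.2), with fold enrichments of 3.32, 3.86, 3.75 and 3.64. Its Cre DOX peak was in the top decile. Peaks covered 6.46% of the Maff window in GFP mock and 24.0% in GFP DOX, then 49.0% in Cre mock and 32.0% in Cre DOX.

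Of the EGR zinc finger factors, Egr1 and Egr3 had peaks in all 4 lists. Egr1 (chr18:34859823-34864984), a classic target of serum response factor, scored 23 in GFP mock and 21 in GFP DOX, then 24 in Cre mock and 19 in Cre DOX, at percentiles 69.8, 72.2, 70.9 and 52.8 and fold enrichments of 3.86, 3.75, 3.75 and 3.10. Its peaks were confined to the gene body, the nearest beginning 238 bp behind the start, and covered 29.2%, 12.9%, 51.1% and 40.1% of the window. Egr3 scored 25, 21, 26 and 18 in the same order, with fold enrichments of 4.04, 3.83, 3.81 and 3.05, and peaks covered 18.3%, 30.2%, 43.6% and 30.5% of its window. At Egr2 the only peaks lay past the end of the gene, from 4524 to 5046 bp behind the start, in every list but Cre DOX. Their scores of 15, 12 and 14 were low in their lists, at percentiles 23.1, 2.79 and 10.5.

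The KLF genes encode factors that bind GC-rich promoters. Klf10 (chr15:38291463-38300706), which is known to be induced by TGF-beta, had a top-decile peak in each list, scoring 34 in GFP mock and 37 in GFP DOX, then 45 in Cre mock and 55 in Cre DOX, with fold enrichments of 4.03, 4.44, 4.55 and 4.49. The highest-scoring peak was nearly the same stretch in each list. It began 207 to 454 bp behind the start, ended 2443 to 2629 bp behind it, was 2025 to 2420 bp wide and held 8 predicted G-quadruplexes, including those printed above. GFP mock also had a Klf10 peak from -653 to -403 bp, and the other lists had peaks in coding exons between 3341 and 5266 bp behind the start. Klf6, a growth-suppressing factor, scored 13 in GFP mock and 20 in GFP DOX, then 32 in Cre mock and 26 in Cre DOX, with fold enrichments of 3.14, 3.73, 4.20 and 3.52. Its peaks covered 2.23%, 4.42%, 25.6% and 21.9% of the window. Klf2 and Klf4 had peaks near their starts in all lists but Cre DOX. Klf2 had no peak in Cre DOX and scored 16, 27 and 39 in the other lists, in order, with fold enrichments of 3.32, 4.13 and 4.43, the last a top-decile peak of 252 bp. Klf4 had none in Cre DOX either and scored 16, 15 and 25 in the other lists.

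**Figure D3:**
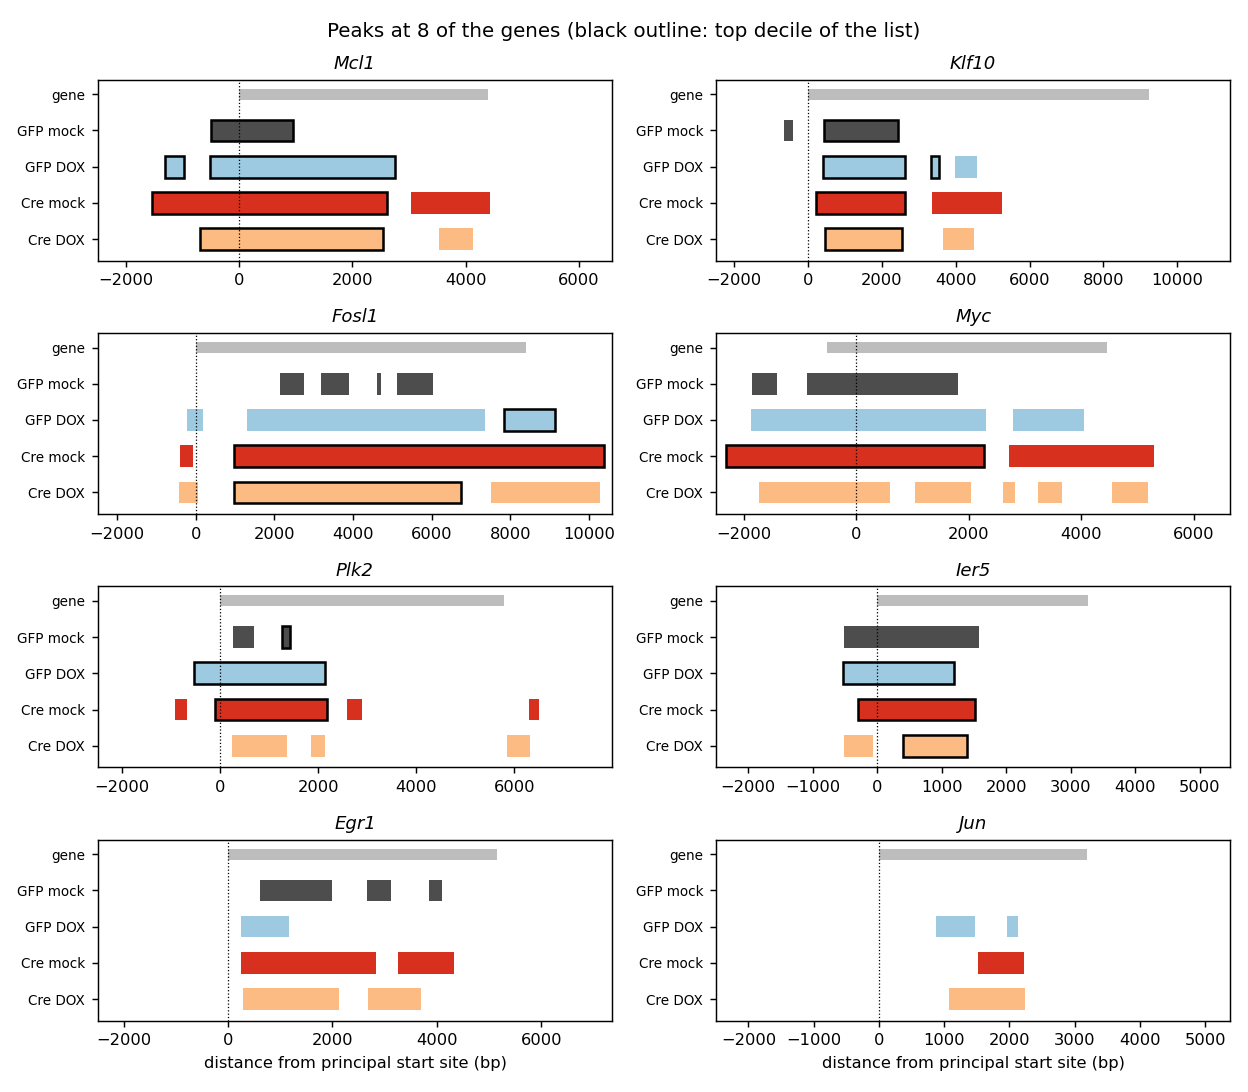
Horizontal axes give the distance in bp from the principal start site along the direction of transcription for 8 of the genes. The grey bar is the annotated gene, coloured bars are the peaks of each list, and a black outline marks the top decile. Peaks of Mcl1 crossed the start in all 4 lists, the highest-scoring peak of Klf10 kept nearly the same stretch behind it, and Jun had no peak in GFP mock.

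Among the other transcription factors, Myc (chr15:61985391-61990374), the growth regulator, was widely covered. Its best peaks scored 23 in GFP mock and 23 in GFP DOX, then 33 in Cre mock and 26 in Cre DOX, at percentiles 69.8, 79.4, 89.3 and 79.5 and fold enrichments of 3.63, 3.61, 4.11 and 3.03, and the Cre mock peak was top decile. Peaks covered 40.1% of the window in GFP mock and 73.0% in GFP DOX, then 91.4% in Cre mock and 62.9% in Cre DOX. Coverage in Cre mock came from 2 peaks and that of Cre DOX from 5. Srf (chr17:46548329-46556175), which encodes serum response factor, scored 37 in GFP mock, a top-decile peak of 426 bp over the start, then 16, 27 and 26 in GFP DOX, Cre mock and Cre DOX. The fold enrichments of these Srf peaks were 4.32, 3.30, 3.82 and 3.34. Both CArG boxes of the printed promoter were under the peaks of all 4 lists. The peaks also overlapped the non-coding gene Gm26904.

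Nr4a1 and Nr4a2 encode orphan nuclear receptors that act without a known ligand in early response. Nr4a1 scored 33 (top decile), 22, 30 and 16 in list order, with fold enrichments of 4.07, 3.59, 3.72 and 2.68. Its peaks covered 12.9%, 19.6%, 27.6% and 7.53% of the window, much of it 10672 to 13591 bp behind the principal start, at the start of a shorter transcript. Nr4a2 scored 27, 18, 22 and 15, with fold enrichments of 4.0, 3.62, 3.70 and 2.82, and its peaks covered at most 8.73% of the window. Both genes had their lowest score in Cre DOX, at percentiles 35.9 and 29.8.

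The IER genes, which encode small early-response proteins, had a peak in every list. Ier5 (chr1:155096361-155099636) scored 27, 30, 33 and 34 in list order, with fold enrichments of 3.96, 4.40, 4.14 and 3.93, and its last 3 peaks were top decile. A single peak of 1720 to 2099 bp spanned its start in the first 3 lists, and Cre DOX had one peak on each side of the start. Ier2 scored 17, 15, 19 and 34, with fold enrichments of 3.29, 3.27, 3.44 and 3.91, and its Cre DOX peak was top decile. Ier3 scored 18, 12, 23 and 25, with fold enrichments of 3.47, 3.15, 3.71 and 3.47. Except in Cre mock, the Ier3 peaks lay past the end of this short gene and over its neighbour Flot1.

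The DUSP phosphatases, which switch MAP kinases off, differed in the lists that held them. Of the 4, 1 had a peak in GFP mock, 2 each in GFP DOX and Cre mock, and 3 in Cre DOX, where 55.0%, 46.0%, 60.4% and 54.1% of all protein-coding genes had one in list order. Dusp5 was in all 4 lists, with scores of 22, 26, 21 and 30 (fold enrichments 3.52, 3.98, 3.48 and 3.58), the last from an intron peak 3441 to 3689 bp behind the start. A peak spanned its start in all lists but GFP DOX, where the nearest ended at -212 bp or began at 202 bp, and all lists but GFP mock also had intron peaks. Dusp1 was in all but GFP mock. Its best peaks between -2442 and -32 bp of the principal start scored 21, 15 and 28 in those lists, in order. The best Cre mock peak, of score 24, lay from -53471 to -53222 bp and over the gene Ergic1. Dusp6 was in Cre DOX only, where its 2 peaks scored 13 and 14. Dusp2 had none.

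The secreted matricellular proteins CYR61 and CTGF, targets of both serum response factor and YAP, differed. Cyr61 (annotated as Ccn1, chr3:145646976-145649981) scored 26, 14, 27 and 35 in list order, with fold enrichments of 3.87, 3.27, 3.86 and 3.80, and the Cre DOX peak was top decile. It spanned the start in GFP mock only, and in both DOX lists the peaks lay at the end of the gene, with that of Cre DOX running from 2493 to 2995 bp behind the start. Ctgf (annotated as Ccn2, chr10:24595442-24598683) had no peak. Its start region had the lowest GC content of the members, 51.6%.

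Among kinases, Plk2 (chr13:110395046-110400844), a polo-like kinase of early response, was top decile in every list but Cre DOX, scoring 45, 39 and 47 with fold enrichments of 5.06, 4.81 and 4.90. In Cre DOX it scored 23 at percentile 70.1, with a fold enrichment of 3.29. Plk3 scored 15, 20, 26 and 29 in list order (fold enrichments 3.22, 3.83, 4.02 and 3.74), and a peak spanned its start in each list, with scores of 15, 14, 14 and 22. Sgk1, the serum- and glucocorticoid-induced kinase, scored 16, 18, 28 and 36 (fold enrichments 3.45, 3.57, 4.06 and 4.07), and was top decile in Cre DOX. The best peaks of the first 3 lists began -98092, -86665 and -34195 bp from the principal start, inside the longest transcripts of a window of 119720 bp, and that of Cre DOX lay from -756 to -379 bp.

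Of the remaining products, Mcl1 (chr3:95658788-95663176), an inhibitor of apoptosis, had the highest scores of all members in GFP mock (64), Cre mock (56) and Cre DOX (59), and 31 in GFP DOX, with fold enrichments of 5.32, 4.94, 4.38 and 3.86 in that order. Its peak crossed the start in each list and was 1435, 3276, 4148 and 3223 bp wide in list order. Gadd45b, a stress sensor, was absent from GFP mock and scored 21, 29 and 44 in GFP DOX, Cre mock and Cre DOX. The last was a top-decile peak with a fold enrichment of 4.50. Rhob, a small GTPase, had 1 narrow peak in each mock list, scoring 17 in GFP mock and 21 in Cre mock, and none with DOX.

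Between GFP mock and Cre mock, 3 members differed in having a peak. Jun, Dusp1 and Gadd45b had one in Cre mock and none in GFP mock (8.57%, interval 1.80 to 23.1), against 13.6% of all protein-coding genes. The reverse was found at 0 of 35 members (upper bound of the interval 10.0%), against 8.22%. Both intervals held the share of all genes. With a −log10 q-value of at least 2, 18 members had a peak in GFP mock and 28 in Cre mock. The share of all protein-coding genes under this limit was not computed, so whether this gap is particular to the members is unknown. The length under peaks was longer in Cre mock than in GFP mock at 20 members (57.1%, interval 39.4 to 73.7), against 47.0% of all protein-coding genes, and shorter at 11 (31.4%, interval 16.9 to 49.3), against 21.6%. With the same limit on q these counts were 24 and 4, and within 1 kb of any start site 20 and 7. No share of all protein-coding genes was computed under these settings. With all peaks and the whole window, 10313 protein-coding genes were longer in Cre mock and 4737 shorter. Genes with equal lengths in both lists, such as the 26.1% without any peak (8.57% of the members), lower both shares. A higher share of members in a direction is thus no shift by itself, here and in the length comparisons below. In all, 42600 bp of the members' windows were under 63 peaks in GFP mock (8.51%) and 93078 bp under 82 peaks in Cre mock (18.6%). Over all protein-coding genes the covered share was 1.32% and 2.33%. Such pooled shares weigh long genes most, whereas the members are short (median 5309 bp against 17403 bp). The part of gene length in this difference was not tested. Fosl2 alone held 23.5% of the covered length in GFP mock and 19.0% in Cre mock, and without it the lengths were 32602 and 75372 bp.

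In cells with Rtel1, 28 members had a peak without doxycycline and 28 with it, and the members were not all the same. Jun, Dusp1 and Gadd45b had one in GFP DOX and none in GFP mock (8.57%, against 6.92% of all protein-coding genes), and Fosb, Junb and Rhob the reverse (8.57%, against 15.9%). The length under peaks was longer in GFP DOX at 17 members (48.6%, interval 31.4 to 66.0, against 26.4%) and shorter at 14 (40.0%, interval 23.9 to 57.9, against 35.5%). The members' windows held 65694 bp under 71 peaks in GFP DOX, or 13.1%, whereas the covered share over all protein-coding genes was 1.35%.

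In cells without Rtel1, 6 members had a peak in Cre mock and none in Cre DOX (17.1%, interval 6.56 to 33.6), against 13.9% of all protein-coding genes. They were Fosb, Junb, Rhob, Egr2, Klf2 and Klf4. Dusp6 alone did the reverse (2.86%, against 7.62%). The length under peaks was shorter in Cre DOX than in Cre mock at 27 members (77.1%, interval 59.9 to 89.6), against 38.4% of all protein-coding genes. It was longer at 5 (14.3%, interval 4.81 to 30.3), against 29.5%. Cre DOX was the list with the most peaks, and over all protein-coding genes its covered share, 2.52%, was above the 2.33% of Cre mock, but over the members it was 12.9% against 18.6%. The median over the members did not fall, being 13.7% of the window in Cre mock and 14.1% in Cre DOX. Over all protein-coding genes the median was 0.73% in Cre mock and 0.467% in Cre DOX, so by medians the contrast ran the other way. Among the members shorter in Cre DOX, Myc had 6386 bp under its Cre mock peaks and 4392 bp under those of Cre DOX, and Maff 7087 and 4622 bp. Counted by top-decile peaks alone, the members longer in Cre mock fell to 8 and those longer in Cre DOX were 6, and the members with such a peak were 9 in Cre mock and 10 in Cre DOX. Of all protein-coding genes, 16.7% and 9.91% had such a peak, and their lengths under such peaks were not compared.

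**Figure D4:**
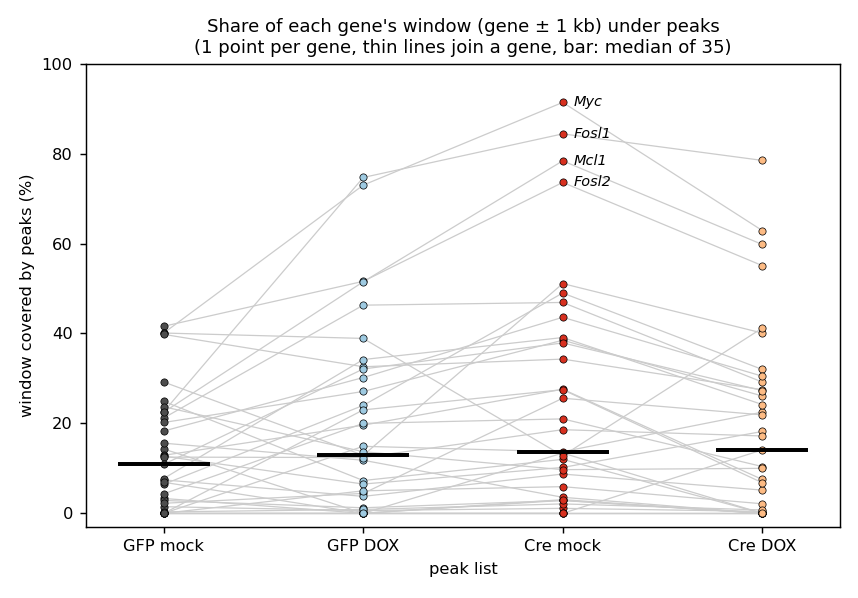
Each point is the percentage of a gene's window under peaks in a list, thin lines join the 4 values of a gene, and the black bar is the median of the 35 genes. The medians were 10.9%, 12.9%, 13.7% and 14.1%, and the 4 genes with the highest values in Cre mock are named.

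The lists with doxycycline differed at the members by 1 gene with a peak in Cre DOX and none in GFP DOX (Dusp6, 2.86%, against 15.2% of all protein-coding genes) and by 3 genes for which the reverse held (Egr2, Klf2 and Klf4, 8.57%, against 7.02%). The length under peaks was longer in Cre DOX at 13 members (37.1%, interval 21.5 to 55.1, against 43.5%) and longer in GFP DOX at 16 (45.7%, interval 28.8 to 63.4, against 17.6%). With 60219 peaks taken from each list the counts were 5 and 23. The order did not hold with peaks of at least 213 bp, where the counts were 16 and 12, with top-decile peaks alone (7 and 4) or with a −log10 q-value of at least 2, where both were 12. For these settings no such counts were made over all protein-coding genes. Fosb, Junb and Rhob were thus found in both mock lists and in neither DOX list. The share of all protein-coding genes with this pattern was not computed. Of all protein-coding genes, 15.9% had a peak in GFP mock and none in GFP DOX, and 13.9% in Cre mock and none in Cre DOX. The order of the read depths of these libraries is unknown, so a lost peak and a shallower library cannot be told apart.

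Merging overlapping peaks of the 4 lists gave 110 regions at the members. Of these, 23 held a peak of all 4 lists (20.9%, interval 13.7 to 29.7), against 7.19% of the 85959 merged regions at protein-coding genes, and 50 a peak of 1 list (45.5%, interval 35.9 to 55.2), against 70.2%. The regions shared by all 4 lists lay at 17 genes, led by Fosl2 with 4 and Nr4a1, Maff and Egr3 with 2 each.

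Along the gene, the positions under a peak at the most members lay between -200 and 1150 bp of the start in every list. The start site itself was under a peak at 13 members in GFP mock (37.1%) and 11 in GFP DOX (31.4%), then 15 in Cre mock (42.9%) and 7 in Cre DOX (20.0%). Over all protein-coding genes the shares were 9.42%, 8.57%, 12.9% and 9.04%. In Cre DOX the most covered distance was 1150 bp behind the start, where 14 members (40.0%) and 5.90% of all protein-coding genes were under a peak. In Cre mock it was a tie of -100, 300 and 350 bp, with 16 members each (45.7%).

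**Figure D5:**
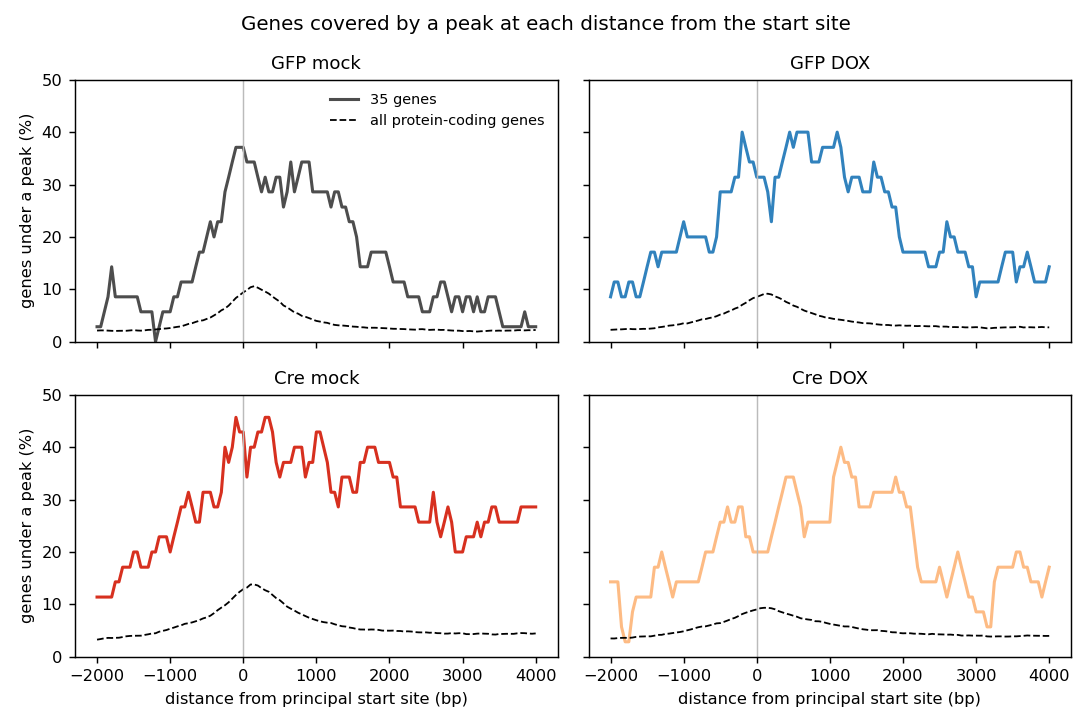
The horizontal axis is the distance in bp from the principal start site, negative before it, and the vertical axis the percentage of genes under a peak at that position. Coloured lines are the 35 genes and dashed lines all protein-coding genes. At the start site the members stood at 37.1%, 31.4%, 42.9% and 20.0% in list order.

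DNA was cut with 5 restriction enzymes before the immunoprecipitation. The fragment that held the principal start site was shorter than 500 bp at 5 members, with 223 bp at Plk2, 243 bp at Egr1, 322 bp at Klf10, 385 bp at Ier2 and 386 bp at Klf6. A peak of any list reached more than 10 bp into it at Plk2 and Klf6, or 2 of 5 (40.0%, interval 5.27 to 85.3), whereas 4.14% of such short fragments over all protein-coding genes were reached. Of the 30 members with a longer fragment, 23 had a peak in it (76.7%), against 42.4% of all such genes. At Egr1 the peaks of GFP DOX and Cre mock began within 1 bp of the cut site that ended the 243-bp fragment. Fos, Dusp2 and Ctgf, without a peak, had start fragments of 1474, 869 and 1122 bp, near the members' median of 1839 bp or below it. Edges of the members' peaks within 10 bp of a cut site numbered 3 of 126 in GFP mock (2.38%, against 3.37% of all edges in the list), 4 of 142 in GFP DOX (2.82%, against 4.49%), 15 of 164 in Cre mock (9.15%, against 5.44%) and 8 of 138 in Cre DOX (5.80%, against 6.48%). Of all genome positions, 3.73% lie that close to a site. The part of cut sites in the absence of a peak from a start was not tested.

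All 35 start regions held a predicted G-quadruplex, as did 84.3% of those of all protein-coding genes. Of the members' peaks, 66.7%, 71.8%, 65.9% and 62.3% held one in list order, against 24.2%, 20.3%, 24.8% and 23.0% over the whole lists. Per kb of peak, the members had 2.93, 2.28, 2.00 and 1.95 predicted G-quadruplexes in the same order and the whole lists 1.07, 0.839, 0.978 and 0.482. The members' peaks were also richer in GC, with medians of 57.5%, 54.4%, 53.6% and 51.2% against 46.0%, 42.1%, 44.7% and 41.6%, and the part of GC content in this difference was not tested. The start region of Fos held 6 predicted G-quadruplexes, and no list had a peak there.

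RefSeq promoter windows, from 250 bp before to 50 bp behind the start (GRCm38.p6), were matched for 28 members. Fosl1, Egr1, Egr3, Klf10, Myc, Ier2 and Ctgf were not matched, so their promoters were not searched. Motifs were searched on both strands. The CArG box was found in 3 of the 28 windows (10.7%), against 1.64% of all 32544 windows, namely in Srf and Dusp5 with a pair of boxes each and in Egr2. The box of Fos printed above, at -309 bp, lies outside its window and is not counted. The boxes of Srf were under peaks of all 4 lists and those of Dusp5 under peaks of 3, all but GFP DOX, and no peak overlapped the promoter window of Egr2. The cAMP response element TGACGTCA was found in 3 (10.7%, against 1.80%), which were Maff, Dusp1 and Plk2. The GC box GGGCGG was found in 24 (85.7%, against 35.9%) and TATAAA in 7 (25%, against 13.6%). The ETS letters CCGGAA were found in 4 (14.3%, against 15.0%), the EGR site GCGTGGGCG, which can overlap a GC box, in 1 (3.57%, against 0.618%), and the AP-1 site TGANTCA in 0 (against 7.79%).

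A further 62 early-response genes, from upstream kinases to secreted products, had a peak at 47 in GFP mock and 41 in GFP DOX, then 49 in Cre mock and 45 in Cre DOX, and at 32 in all 4 lists. Of all protein-coding genes, 55.0%, 46.0%, 60.4% and 54.1% had a peak in list order and 33.5% in all 4 lists. By role, all 4 lists had a peak at 8 of 12 upstream factors and kinases, 8 of 20 other transcription factors, 10 of 14 feedback inhibitors and RNA decay factors and 6 of 16 secreted or structural products. The highest percentile in Cre mock was that of Atf4, the main factor of the integrated stress response, with scores of 30, 61, 62 and 113 in list order. It was followed by the chemokine gene Cxcl1 with 36, 37 and 55 and by Id3, an inhibitor of basic helix-loop-helix factors, with 42, 37 and 52. Neither Cxcl1 nor Id3 had a peak in Cre DOX.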

How the data were processed

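DRIP-seq was analysed in 4 DRIP libraries of 1 MEF line, grouped by virus and doxycycline as labelled, with 1 library per group. The labels do not say whether the 3 pooled immunoprecipitations of a group came from separate cultures. The authors processed single-end reads with nf-core/chipseq, aligned them to mm10 with BWA and called peaks per library with MACS2. Per the labels the build is mm10 and the caller MACS2, with no version given. Whether the inputs served as control is not stated. The deposited lists are in broad-peak format, which gives wide peaks and hence more overlap with genes, whereas the command in the methods carries an option for narrow peaks. How the lists were called is therefore not settled, and widths, covered lengths and overlaps hold for the lists as deposited. The deposited score is 10 times the −log10 q-value (99.9962% of peaks), and the authors' caller also gave the −log10 p-value and the fold enrichment, a ratio of signal to local background. None is normalised between libraries. The depth is unknown.

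Positions are 1-based in mm10 (GRCm38). Genes came from GENCODE M21, in which all 35 members were matched, 2 of them (Cyr61, Ctgf) under other symbols, and sequence from the GRCm38.p6 reference, where lower-case bases are repeat-masked. Overlap with all peaks was counted with Python 3.11.15, numpy 2.4.6 and scipy 1.17.1, and tested on simulated peaks with known overlaps. Shares have exact Clopper-Pearson intervals at 95%. Values in every list were given for members with a peak in all 4 lists or any top-decile peak, and for Fos, Egr1, Jun, Junb and Myc in any case. The other members were named with the lists that held them and their scores, or as having no peak. Of the other early-response genes, the 3 with the highest percentile in Cre mock were named. Members and lists were chosen with earlier results of these data known. The comparisons of restriction fragments and cut sites and their limits of 500 and 10 bp were added after the data were seen. The lists hold no column of other samples. Alternatives changed the peaks kept (top decile, −log10 q of at least 2, equal numbers, width, repeat-masked share), the window and the overlap.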

Additional observations from a re-analysis of the deposited data

How the results depend on the processing

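No paired analysis was possible because each group had 1 library, and no replicate could be left out. The numbers of members with a peak, 28 in GFP mock and 28 in GFP DOX, then 31 in Cre mock and 26 in Cre DOX, and their differences of 3 (Cre mock minus GFP mock), 0 (GFP DOX minus GFP mock) and -5 (Cre DOX minus Cre mock) were recomputed under 8 alternatives, and 38 of the 56 values stayed within 1.5 times. With top-decile peaks only, the numbers were 6, 5, 9 and 10, GFP DOX minus GFP mock became -1, and Cre DOX minus Cre mock turned to 1. With a −log10 q-value of at least 2, GFP mock and GFP DOX had 18 each, Cre mock minus GFP mock rose to 10 and Cre DOX minus Cre mock went to -8. With 60219 peaks taken from each list the differences were 5, 3 and -8. With peaks of at least 213 bp, GFP DOX minus GFP mock was -1. Without the extension of 1 kb, Cre mock minus GFP mock was 5 and GFP DOX minus GFP mock 1, and within 1 kb of any start site they were 5 and 2. The filter on repeats and the midpoint rule kept all 7 values within 1.5 times. These smaller numbers follow from fewer peaks or shorter windows. The causes of the changed differences were not tested. Except for the numbers with a top-decile peak, no share of all protein-coding genes was computed under these alternatives.

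The counts of members covered over a longer length in 1 list than in another were also run under these alternatives, a choice made after the data were seen. They were not run under them over all protein-coding genes. Longer in Cre mock than in Cre DOX, 27, was 21 to 27 in all but the top-decile setting, where it was 8, while the reverse count, 5, was 4 to 8 throughout. Longer in GFP mock than in Cre mock, 11, was 2 with top-decile peaks, 4 with a −log10 q-value of at least 2, 7 within 1 kb of any start site and 8 to 12 otherwise, and the reverse count, 20, was 9 with top-decile peaks and 19 to 24 otherwise. Longer in GFP mock than in GFP DOX, 14, was 3 with top-decile peaks, 9 without the extension and 10 to 14 otherwise, and the reverse count, 17, was 5 and otherwise 14 to 20. Longer in Cre DOX than in GFP DOX, 13, was 7 with top-decile peaks, 5 with equal numbers of peaks and 10 to 16 otherwise, and the reverse count, 16, was 4, 23 and 12 to 17. Depth is unknown and there is 1 library per group, so neither the gain nor the loss of a peak at a single gene can be told from sampling.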
